A study of Mus musculus with 11 samples.

Results

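The hnRNP and SR families, which hold the most abundant sequence-specific regulators of mRNA splicing, were examined in langerin-DTR mice, from RNA sequencing of their gingival epithelium. The members are the genes with values whose symbol begins with Hnrnp or Srsf, together with Tra2a and Tra2b, leaving out 4 symbols that mark pseudogenes. This gave 33 of the 19170 genes with values, 20 of them hnRNP genes and 13 SR or Tra2 genes. Langerin-DTR mice express the diphtheria toxin receptor from the langerin promoter, so that diphtheria toxin (DT) kills langerin-positive cells, above all Langerhans cells (LCs), the antigen-presenting cells of stratified epithelia. Both groups carried this allele. The 5 control mice received PBS and the other 6 received DT, with injections at 17, 24 and 31 days of age, and the epithelium was separated from the lamina propria at 8 weeks of age. The LCs had returned by then, as flow cytometry of the study showed. The comparison therefore asks which transcripts differed in adult epithelium after early DT. No mice without the receptor were given DT, so effects of the toxin itself and of the loss of LCs cannot be told apart.

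hnRNP proteins coat nascent transcripts and often repress the use of nearby exons, while SR proteins bind exonic enhancers through RNA recognition motifs and recruit the spliceosome through arginine and serine rich domains. Many genes of both families limit their own expression by splicing in a poison exon or an intron of the 3' end, which sends the transcript to nonsense-mediated decay (NMD). Several also act in mRNA export, stability and translation.

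The values are normalized counts, that is, reads per gene divided by a size factor for each mouse. Gene counts summed to between 17509328 and 24325513 reads in each library. All 11 genes of a keratinocyte marker list were expressed, with a summed level between 2535000 and 2816000 normalized counts. The 6 LC markers, each with a mean of at least 10, summed to 4706 in PBS 3 and 3688 in PBS 5, against 1782 to 2338 in the other PBS mice and 1260 to 2687 in the DT mice. These PBS mice stood apart from the others of their group in earlier results, so values without them are given wherever leaving them out changes a call. The choice of these mice came from the same data, and the p-values of that fit do not allow for it. The immediate early genes, an early transcriptional response that tissue handling can also induce, differed between the groups, with sums from 23900 to 63480 in PBS mice and from 66860 to 107500 in DT mice. In such bulk samples, a smaller number of cells of a type and less RNA per cell cannot be told apart.

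The sequences around the transcription start of 4 members are shown, namely Hnrnpd and Hnrnpdl, neighbours of one subfamily that had the lowest hnRNP differences, and Srsf2 and Srsf5, the lowest of the SR genes. They were chosen after their values were seen. Each runs 5' to 3' on the strand of its gene, from 250 bases before to 50 bases after the start in RefSeq (GRCm38.p6). Capitals mark matches, on either strand, to 6 short motifs, and adjoining matches run together. The letters of the GC box were GGGCGG and those of the CCAAT box its name. An ETS factor motif was searched as CCGGAAG and the E-box as CACGTG. The letters of the TATA box were taken to be TATAAA. For AP-1 the motif was TGANTCA, where N is any base. The windows lie at chr5:99978889-99979188 on the minus strand for Hnrnpd, chr5:100039173-100039472 on the minus strand for Hnrnpdl, chr11:116853045-116853344 on the minus strand for Srsf2 and chr12:80945249-80945548 on the plus strand for Srsf5.
Hnrnpd: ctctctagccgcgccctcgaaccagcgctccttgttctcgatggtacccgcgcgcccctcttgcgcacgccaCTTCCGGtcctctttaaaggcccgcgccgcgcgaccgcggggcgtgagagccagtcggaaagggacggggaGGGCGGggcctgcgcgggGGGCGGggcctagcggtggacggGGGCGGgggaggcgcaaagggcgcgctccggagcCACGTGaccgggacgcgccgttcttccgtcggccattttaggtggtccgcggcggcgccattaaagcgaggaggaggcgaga
Hnrnpdl: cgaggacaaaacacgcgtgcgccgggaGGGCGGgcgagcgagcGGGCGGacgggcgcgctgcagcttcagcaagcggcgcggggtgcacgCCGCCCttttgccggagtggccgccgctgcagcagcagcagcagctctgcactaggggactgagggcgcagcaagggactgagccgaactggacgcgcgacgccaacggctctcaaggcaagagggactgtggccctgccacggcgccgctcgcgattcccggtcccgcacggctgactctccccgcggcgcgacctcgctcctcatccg
Srsf2: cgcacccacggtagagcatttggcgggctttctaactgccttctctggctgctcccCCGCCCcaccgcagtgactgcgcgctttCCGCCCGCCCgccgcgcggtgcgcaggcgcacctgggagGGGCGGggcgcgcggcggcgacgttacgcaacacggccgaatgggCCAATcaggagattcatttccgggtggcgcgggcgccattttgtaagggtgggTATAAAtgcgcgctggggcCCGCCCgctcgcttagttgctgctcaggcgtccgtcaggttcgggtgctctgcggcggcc
Srsf5: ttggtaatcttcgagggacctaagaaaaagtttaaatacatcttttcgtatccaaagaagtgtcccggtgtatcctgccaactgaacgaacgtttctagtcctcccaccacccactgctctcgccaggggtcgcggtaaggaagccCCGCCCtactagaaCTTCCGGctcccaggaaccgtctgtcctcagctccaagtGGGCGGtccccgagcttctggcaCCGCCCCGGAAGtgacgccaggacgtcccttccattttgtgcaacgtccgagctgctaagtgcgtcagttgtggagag
A RefSeq promoter was found for 31 of the 33 members, with 43 windows in all. Their median was 28 CpG dinucleotides and 67.3% GC, against 7 and 52.7% for the 32851 promoters of the table, which include those of weakly expressed and non-coding genes. The GC box was present in 83.7% of the member windows and in 35.7% of all windows, CCAAT in 51.2% and 37.4%, ETS in 23.3% and 8.86%, the E-box in 11.6% and 7.15%, and TATA in 9.3% and 13.6%. AP-1 letters, the motif of Fos and Jun, were in 2.33% of the member windows and 7.81% of all windows. Some genes have several windows, which can overlap, so these shares count such genes more than once. Of the 31 genes, 26 had a GC box in some window, 18 CCAAT, 6 ETS, 5 the E-box, 4 TATA and 1 AP-1. Shares by gene were not computed for all promoters. The 4 windows shown all hold GC boxes, and the TATA letters occur only in that of Srsf2.

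Of the 33 members, Hnrnpd was lower after DT and none was higher at an adjusted p under 0.1 (limma on log2(normalized count + 1), adjusted over 19170 genes). Among all genes, 0.245% were called lower, 0.313% higher and 0.558% either way. At an unadjusted p under 0.05, Hnrnpc and Tra2b were on the higher side and Hnrnpd and Srsf2 on the lower side, against 5.31% and 6.19% of all genes. The log2 difference was above 0 for 16 members and below 0 for 17, where 52.7% of all genes and 49.3% of those with a mean of at least 10 were below 0. The members had a median of -0.02 over the hnRNP genes and 0.02 over the SR and Tra2 genes, and the median was 0.00 over all genes that averaged at least 10. Without PBS 3 and PBS 5, the medians were -0.06 and -0.11 and 7 members were called lower, namely Hnrnpd, Hnrnpdl, Hnrnph1, Srsf2, Srsf5, Srsf6 and Srsf11. That fit called 1967 genes (10.3%), 5.45% of all genes lower, against 107 genes with all mice. For a gene in which PBS 3 and PBS 5 are the low PBS mice, leaving them out lowers the difference by construction. The calls and p-values without them are therefore descriptions of how the result depends on these mice.

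**Figure D1:**
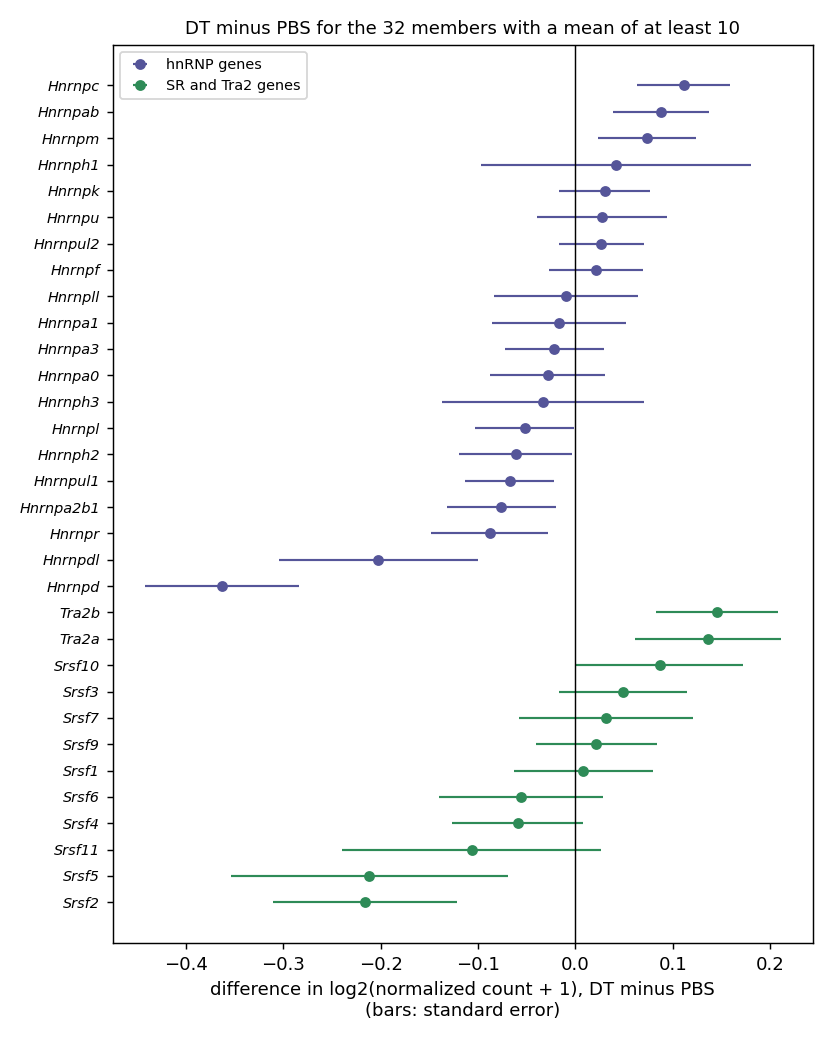
Difference between DT and PBS mice in log2(normalized count + 1) for the 32 members with a mean of at least 10, points for the estimate and bars for its standard error. Hnrnpd lies lowest at -0.36, and the other hnRNP genes lie between -0.20 and 0.11.

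Hnrnpd (ENSMUSG00000000568) encodes AUF1, a protein that binds AU-rich elements and controls the decay of many short-lived mRNAs besides its nuclear roles. It lies on the minus strand of chromosome 5 of GRCm38 from 99955935 to 99978938, and 4 of its 11 annotated transcripts are NMD substrates. The 5 PBS mice had 1698, 1973, 1758, 1717 and 1939 normalized counts. The DT mice had 1192 at the lowest, 1399 at the median and 1685 at the highest. Each DT mouse lay below each PBS mouse, although the closest values, 1685 and 1698, nearly met. Hnrnpd was the only member whose groups did not overlap. Of the 13477 genes that averaged at least 10, the groups were apart in 2.11%, with DT higher in 1.23% and lower in 0.883%. The mean fell from 1817 ± 129 (SD, n = 5) to 1419 ± 181 (SD, n = 6). On the log2 scale the DT level was 77.8% of the PBS level. The log2 difference was -0.36 with a standard error of 0.08 and an adjusted p of 0.0782 in limma, and an exact two-sided permutation of the group labels (462 arrangements) gave p = 0.00433, where the smallest possible is 0.00216. The spread between mice exceeds the counting error, which was at most 2.87% in any library.

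The direction of Hnrnpd held in each fit with a mouse left out, with log2 differences from -0.41 to -0.31, but the call did not. It passed in 3 of the 11 such fits, those without PBS 4, PBS 5 or DT 3, and the adjusted p ranged from 0.0427 to 0.204. Without PBS 3 and PBS 5 together the difference was -0.35 with an adjusted p of 0.0395. An antisense gene, Gm17092, shares 385 exonic bases with Hnrnpd (5.24%) and had a mean of 34.8 normalized counts. The immediate early gene sums given above also separated the groups, in the opposite direction to Hnrnpd. Mitochondrially encoded genes took 2.87, 4.14, 1.63, 2.92 and 3.03% of the counts in PBS mice and 1.34 to 2.24% in DT mice. The part of either in the result was not tested.

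**Figure D2:**
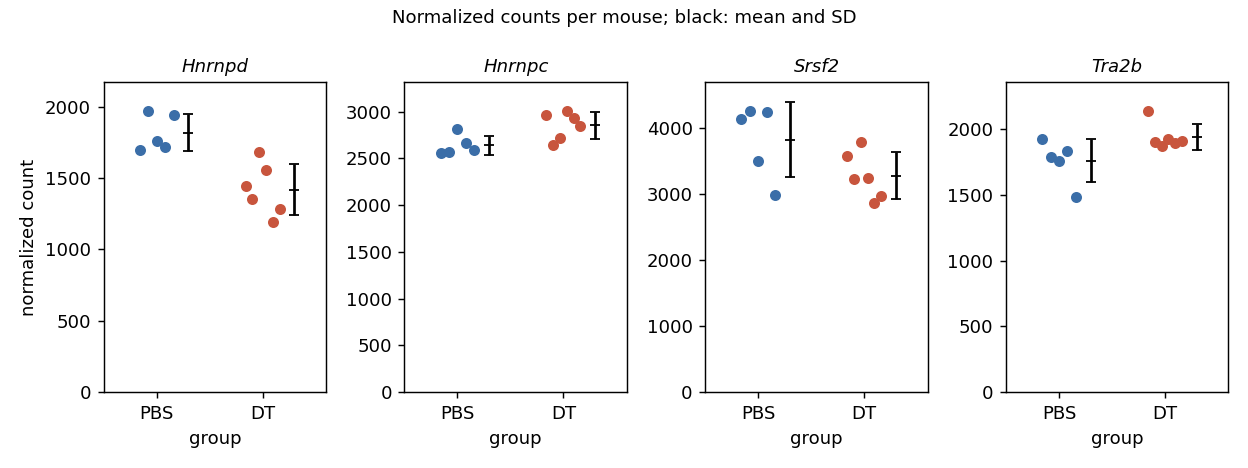
Normalized counts of Hnrnpd, Hnrnpc, Srsf2 and Tra2b in each mouse, with the mean and SD in black. The groups are apart for Hnrnpd, where DT mice reach 1685 and PBS mice start at 1698, and overlap for the other 3 genes.

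Hnrnpdl, which encodes a paralogue of Hnrnpd, lies 54638 bases beyond it on the same chromosome and strand. Its values were 2221, 2117, 1556, 2125 and 1661 in PBS mice and 1310, 1706 and 1870 (lowest, median, highest) in DT mice. PBS 3 and PBS 5, which were not low for Hnrnpd, were the low PBS mice here and lay within the range of the DT mice. The log2 difference was -0.20 ± 0.10 (SE), with an adjusted p of 0.466 in limma. It was -0.37 with an adjusted p of 0.0230 without PBS 3 and PBS 5.

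Hnrnpc encodes the core particle proteins C1 and C2, which bind uridine tracts and mask cryptic exons. Its values were 2560, 2571, 2811, 2665 and 2588 in PBS mice, and 2644, 2889 and 3011 in DT mice as lowest, median and highest. Most DT mice were above most PBS mice, but PBS 3 and PBS 4 lay inside the DT range. The difference of 0.11 ± 0.05 (SE) did not pass the threshold (limma adjusted p = 0.386), and the exact permutation p was 0.0303 before any adjustment.

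Hnrnpab, a paralogue of Hnrnpd that also binds AU-rich RNA, had 8965, 9084, 9745, 8644 and 9557 normalized counts after PBS. After DT the lowest was 9251, the median 9749 and the highest 10269. The groups overlapped, with a log2 difference of 0.09 ± 0.05 (SE) and a limma adjusted p of 0.514. Exons of Phykpl on the opposite strand cover 29.1% of the exonic bases of Hnrnpab, and the strand setting of the counting is not given in the sources used here. The paralogues Hnrnpd, Hnrnpdl and Hnrnpab thus had differences of -0.36, -0.20 and 0.09, of which that of Hnrnpd passed the test.

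Hnrnpul1, a nuclear protein with roles in RNA export and DNA repair, had 4391, 4161, 4671, 4537 and 4505 normalized counts after PBS and from 4028 to 4471 after DT, with a median of 4280. The groups overlapped by most of their range, and the log2 difference was -0.07 ± 0.05 (SE). The remaining hnRNP genes were closer to 0 or less precise, with differences between -0.09 for Hnrnpr and 0.07 for Hnrnpm. They include the widely studied splicing repressors Hnrnpa1 (-0.02 ± 0.07) and Hnrnpl (-0.05 ± 0.05), the poly(C) binder Hnrnpk (0.03 ± 0.05) and the nuclear scaffold protein Hnrnpu (0.03 ± 0.07), all values being log2 differences ± SE.

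Per kilobase of the longest coding transcript, Hnrnpa2b1, which also sorts RNAs for transport, was the highest hnRNP gene at 4427 normalized counts. Rankings per kilobase, here and for the SR genes, assume that counts grow with transcript length. The sources leave the library type, and so this assumption, uncertain. It was followed by Hnrnpab at 4014, Hnrnpa1 at 3032 and Hnrnpk at 2876. The lowest was Hnrnpr at 58.2, whose annotated longest coding transcript is unusually long. Hnrnpa2b1 had 8544, 8172, 7866, 7909 and 6897 normalized counts in PBS mice and from 7086 to 7915 in DT mice, with a median of 7467. Hnrnpr, a paralogue of the cytoplasmic factor Syncrip, had 1310, 1374, 1334, 1278 and 1154 in PBS mice and from 1146 to 1390 in DT mice, with a median of 1188. Both overlapped between the groups. Levels of Hnrnpa1, Hnrnpa3 and Hnrnpf are less certain, since 8, 15 and 6 processed pseudogenes hold stretches of at least 100 bases at 97% identity or more. Such stretches also occur in 4 other genes for Hnrnpd (3 with values, longest match 386 bases) and in 17 for Hnrnpr (12 with values).

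Among the SR and Tra2 genes none was called. Tra2b, a sequence-specific activator of exons with GAA-rich enhancers, had 1924, 1789, 1758, 1832 and 1487 normalized counts in PBS mice. The DT mice had 1872 at the lowest, 1903 at the median and 2140 at the highest. PBS 1 was the only PBS mouse inside the DT range, and PBS 5 lay far below the rest. The difference was 0.15 ± 0.06 (SE) with a limma adjusted p of 0.378 and an exact permutation p of 0.0152. It was 0.07 without PBS 3 and PBS 5. After removal of length and GC trends it passed, with an adjusted p of 0.0958.

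Tra2a, its paralogue, had 1352, 1272, 1342, 1416 and 995 normalized counts after PBS, and 1340, 1386 and 1474 as lowest, median and highest after DT. Here too PBS 5 stood lowest, and the difference of 0.14 ± 0.07 (SE) had a limma adjusted p of 0.503. Without PBS 3 and PBS 5 it was 0.05.

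Srsf2 (SC35), which can both activate exons and promote transcription elongation, had 4148, 4273, 3505, 4251 and 2986 normalized counts in PBS mice. The DT mice ranged from 2868 to 3798 with a median of 3244. PBS 1, PBS 2 and PBS 4 lay above each DT mouse, while PBS 3 and PBS 5 lay within the DT range. The log2 difference was -0.22 ± 0.09 (SE), with a limma adjusted p of 0.395 and an exact permutation p of 0.0952. It reached -0.37 with an adjusted p of 0.0133 without PBS 3 and PBS 5. Exons of Mettl23 and Mfsd11 on the opposite strand overlap 15.6% and 9.74% of those of Srsf2.

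Srsf5 (SRp40), first described as a growth factor-inducible gene, was the highest SR gene per kilobase, at 2704. Its values were 5187, 6176, 3305, 5204 and 3343 in PBS mice and 3120, 4044 and 4257 in DT mice as lowest, median and highest. The PBS mice thus formed a high set and a low pair on either side of most DT mice. The log2 difference was -0.21 ± 0.14 (SE), with an adjusted p of 0.603 in limma. It was -0.50 with an adjusted p of 0.00714 without the low pair, PBS 3 and PBS 5. Srsf12, the lowest SR gene at 1.03 per kilobase, had 1.13, 0.972, 5.03, 3.64 and 2.098 normalized counts in PBS mice and 2.15 to 5.07 in DT mice. Values this low are single reads, and its difference of 0.40 ± 0.37 (SE) was not resolved at this depth.

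The other SR genes lay between -0.11 for Srsf11 and 0.09 for Srsf10. Without PBS 3 and PBS 5, Srsf11 had a difference of -0.38 with a limma adjusted p of 0.0103. The founding members Srsf1 (SF2/ASF), a general activator of splice site choice, and Srsf3, which links splicing to export and polyadenylation, had log2 differences of 0.01 ± 0.07 and 0.05 ± 0.07 (SE). Srsf6 had -0.06 ± 0.08 and Srsf7 0.03 ± 0.09, with PBS 5 as the lowest PBS mouse for both. Srsf6 was called at -0.22 (limma adjusted p = 0.0242) without PBS 3 and PBS 5.

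SR and Tra2 genes varied more among PBS mice than among DT mice. The median SD of the log2 values over PBS mice was 0.23 for the 13 SR and Tra2 genes, with the barely detected Srsf12 included. It was 0.09 for the hnRNP genes, against 0.13 for the 7948 genes that averaged at least 250. Over DT mice these medians were 0.09, 0.07 and 0.09. The PBS SD exceeded the DT SD in 28 of 33 members (84.8%), in 27 of the 32 members with a mean of at least 10 (84.4%), and in 74.7% of those 7948 genes. As members of a pathway vary together, these counts are descriptions.

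**Figure D3:**
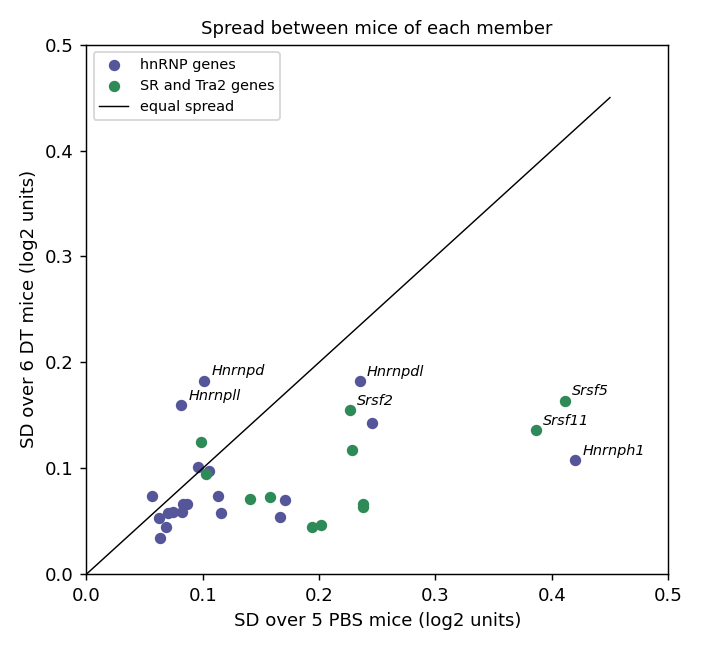
SD of log2(normalized count + 1) over the 5 PBS mice (horizontal) and the 6 DT mice (vertical), 1 point per member with a mean of at least 10, and a line of equal spread. Hnrnph1, Srsf5 and Srsf11 lie far to the right, and Hnrnpd and Hnrnpll lie above the line.

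The widest of the well-measured genes was Hnrnph1, a binder of G-rich RNA, with 3677, 3521, 2538, 3773 and 1936 normalized counts in PBS mice, where the highest was 1.95 times the lowest. Its DT mice lay between 2788 and 3396, inside the PBS range. This ratio among PBS mice was 1.87 for Srsf5, 1.78 for Srsf11, a factor tied to U2AF, 1.54 for Hnrnph3 and 1.53 for Srsf10. The narrowest were Hnrnpc and Hnrnpul2, at 1.1. The difference of Hnrnph1 was 0.04 with all mice and -0.25 (adjusted p = 0.0296 in limma) without PBS 3 and PBS 5, so that its sign depends on those mice.

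PBS 3 and PBS 5 were the lowest PBS mice in 10 of the 12 SR and Tra2 genes with a mean of at least 10 (83.3%), in 6 of the 20 hnRNP genes (30%) and in 22.4% of the 13477 genes. The exceptions among the SR and Tra2 genes were Srsf9, for which these mice were the highest PBS mice, and Tra2a. Summed over the family, SR and Tra2 genes had 29001, 30366, 23586, 29410 and 21268 normalized counts in the PBS mice, in numerical order, and between 23603 and 27087 in DT mice. The hnRNP sums were 88286, 85305, 86472, 86505 and 78451, and between 81549 and 88051 in DT mice. The SR sum per 100 hnRNP counts was thus 32.9, 35.6, 27.3, 34.0 and 27.1 in PBS mice and between 28.3 and 31.4 in DT mice, which lie between the high and low PBS mice. The PBS mice with the lowest SR sums, PBS 3 and PBS 5, had the highest sums of the LC markers (given above), of 4 macrophage markers (430 and 384, against 249 to 298 in the other PBS mice and 241 to 324 in DT mice) and of S100a8 and S100a9 (1974 and 3291, against 627 to 811, and 608 to 3673 in DT mice). These last are the 2 of 4 listed neutrophil markers with values, are also expressed by oral keratinocytes, and Ly6g and Retnlg are without values. Their part in the spread was not tested.

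**Figure D4:**
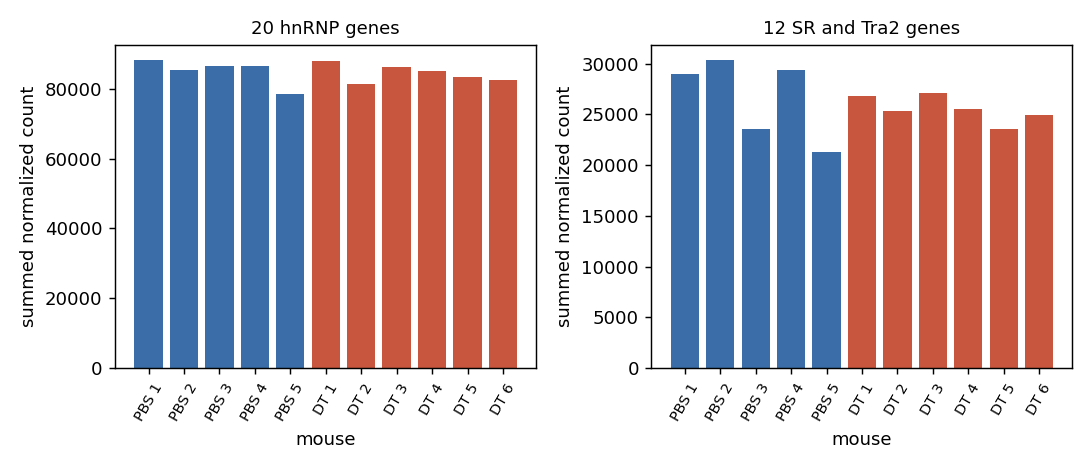
Summed normalized counts of 20 hnRNP genes (left) and 12 SR and Tra2 genes (right) in each mouse, PBS in blue and DT in red. The SR sum is lowest in PBS 5 at 21268 and PBS 3 at 23586 among the PBS mice, and the hnRNP sums stay within 78451 to 88286.

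**Figure D5:**
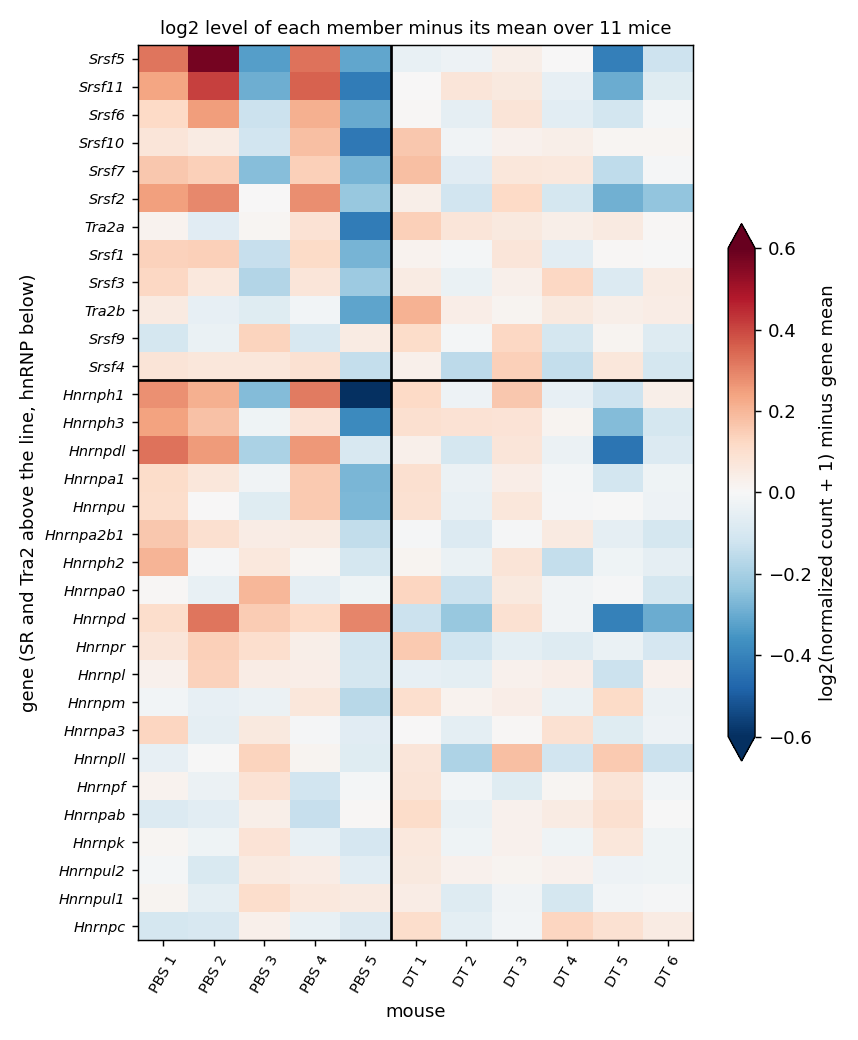
Deviation of each member from its own mean over the 11 mice, in log2 units, with mice in columns and genes in rows sorted by PBS spread within each family. Colours end at 0.6 in each direction. PBS 1, PBS 2 and PBS 4 are high and PBS 3 and PBS 5 low in most SR genes. Hnrnpd is below its own mean in 5 of the 6 DT mice, though in DT 4 only slightly.

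The other splicing genes were grouped in 6 lists, of which 172 of 179 listed genes have values. None of the 172 passed an adjusted p under 0.1, and 4 were higher and 9 lower at an unadjusted p under 0.05, against the shares of all genes given above. Leaving out PBS 3 and PBS 5 raised the calls to 41 of the 172, of which 5 were higher and 36 lower, where 10.3% of all genes were called. Limma voom called 0.
Among the 26 hnRNP-class proteins with other names, 1 was on the higher side and 3 on the lower side at an unadjusted p under 0.05. Pcbp4, a poly(C)-binding protein, had a log2 difference of -0.29 ± 0.09 (SE) and Cirbp, a cold-inducible RNA-binding protein, -0.23 ± 0.09, with adjusted p of 0.240 and 0.302 in limma. Of the 25 SR-related and exon-definition proteins 2 were on the lower side. Rsrp1, an arginine and serine rich protein, had the lowest difference without passing, with 4853, 5237, 3455, 4574 and 2430 normalized counts in PBS mice and 1956 to 3242 in DT mice. Its difference was -0.58 ± 0.17 (SE) with an adjusted p of 0.214 in limma, and it was called without PBS 5 (-0.75, adjusted p = 0.0175). It was also called in 4 of the 12 other alternatives, with -0.88 (adjusted p = 0.00401) without PBS 3 and PBS 5, and with array weights and both blocks on the title number. Son, a scaffold of nuclear speckles, had -0.24 ± 0.10, and -0.42 (limma adjusted p = 0.00714) without PBS 3 and PBS 5.

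Of the 14 kinases, phosphatase partners and importers of SR proteins, 1 was on the lower side. These were led by Dyrk1b, a kinase, at -0.21 ± 0.08 (SE), and Ppp1ca, a catalytic subunit of protein phosphatase 1, at 0.12 ± 0.07. Ppp1ca was called at 0.25 (limma adjusted p = 0.0160) without PBS 3 and PBS 5. Of 28 tissue splicing regulators 2 were on the lower side, namely Mbnl3 at -0.24 ± 0.07 and Rbfox2, an RNA-binding regulator of alternative exons, at -0.15 ± 0.05. Mbnl3 was called without PBS 4 (-0.29, limma adjusted p = 0.0940) and Rbfox2 without PBS 3 and PBS 5 (-0.19, adjusted p = 0.0612). Of 69 snRNP and core spliceosome proteins 3 were on the higher side, among them Prpf3, a tri-snRNP protein, at 0.18 ± 0.07, and Dhx15, a helicase that releases the lariat, at 0.14 ± 0.06. Of 10 NMD factors 1 was on the lower side, the kinase Smg1 at -0.27 ± 0.07, and the next by p was Upf3a at 0.09 ± 0.06. Smg1 was called at -0.34 (limma adjusted p = 0.0227) without PBS 3 and PBS 5.

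PBS 3 and PBS 5 were also the lowest PBS mice in much of these lists, counting genes with a mean of at least 10. They were so in 80% of the SR-related genes, 57.7% of the tissue splicing regulators, 57.1% of the SR kinases and transport genes, 53.8% of the hnRNP-class genes, 50% of the NMD factors and 23.5% of the snRNP and core spliceosome genes, against 22.4% of all genes.

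An NMD transcript is annotated for 11 of the 13 SR and Tra2 genes (84.6%) and 10 of the 20 hnRNP genes (50%), against 29.8% of protein-coding genes that averaged at least 250. A retained intron transcript is annotated for 72.7% of the members, against 63.8%. Counts per gene sum these transcripts with the coding ones, so a change in the share of poison exons was not measured here.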

How the data were processed

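Epithelial mRNA of 5 PBS and 6 DT langerin-DTR mice was measured with a stranded library kit, according to the reporting summary of the paper. Its methods instead say that reads were processed by the QuantSeq guide, so the library type is uncertain. Per the paper's methods, reads were trimmed, aligned with TopHat to GRCm38, counted with htseq-count and divided by a size factor per mouse. The submitters' processing notes name the same aligner version, TopHat2 2.1.1. They differ from the paper in the genome, GRCm39, and in the versions of the other tools (cutadapt 2.10, HTSeq 2.01 and DESeq2 1.36.0). The deposited values are thus a score, the normalized count given by the authors for every gene in each mouse. The table lists 55414 genes, with values for 19170 and none for 36244. Every low nonzero value was a whole multiple of a single read within a tolerance of 0.1. Higher values were not checked in this way and were rounded to whole reads, which gave the depth. Counting errors were read from those reads and cover counting only. No column of sample values was left out.

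DT was compared with PBS by limma 3.58.1 in R 4.3.3 (trend = TRUE) on log2(normalized count + 1), over all genes, with Benjamini-Hochberg adjustment and a threshold of 0.1, without covariates. Log2 differences are on this scale. The limma p-values set each group difference against the spread between mice within the groups, with the variance of each gene moderated over all genes. Single genes were also compared with two-sided exact permutation tests. The procedure was tested on simulated data. Sums and shares per mouse used genes with a mean of at least 10, while the median SDs of the families used all members.

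The members and the gene lists were chosen with earlier results of these data known. Mouse values are given for members past the threshold or without overlap, for the 4 hnRNP and the 4 SR or Tra2 genes with the smallest p among the rest, and for the highest and lowest gene of each family per kilobase. The 2 genes with the smallest p of each other splicing list are named. Members named for their spread were picked with their values in view. Positions, transcript types and exon overlaps came from GENCODE release M21 on GRCm38, near copies from BLAST 2.17.0, and promoters from RefSeq. The alternatives were other pseudocounts, a filter, TMM and quantile scaling, array weights, a length and GC correction, replicate blocks and mice left out. A fit by limma voom was added after the data were seen.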

Additional observations from a re-analysis of the deposited data

Results flagged for a closer look

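Single mice far from the others of their group were found in 5 of the 66 combinations of member and group tested, where chance flags about 1 in 20. DT 1 was the high mouse for 3 genes. It had 1390 normalized counts of Hnrnpr against 1147 to 1211 in the other DT mice, 2140 of Tra2b against 1872 to 1925, and 1253 of Srsf10 against 1103 to 1148. PBS 3 had 4641 normalized counts of Hnrnpa0 against 3893 to 4064 in the other PBS mice. PBS 5 had 699 of Srsf4 against 808 to 822. Exons of Gm12992 on the opposite strand cover 43% of the exonic bases of Srsf4.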

How the results depend on the processing

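The call of Hnrnpd as lower held under 8 of the 12 alternatives that keep or leave out mice together, among them both pseudocounts, the filter, TMM and quantile scaling, array weights, limma voom and the fit without PBS 3 and PBS 5, and its log2 difference was between -0.38 and -0.30 in all 12. Members called lower were 0 with the length and GC correction, which called 1 member higher (Tra2b), 168 genes in all and 72.6% of them higher against 56.1% in the main fit, and 7 without PBS 3 and PBS 5, which called 1967 genes (922 higher, 1045 lower) and 41 other splicing genes (5 higher, 36 lower). In that fit Hnrnph1 turned from 0.04 to -0.25. Array weights called 189 genes and 1 other splicing gene. Leaving out each mouse in turn gave 27 to 259 genes, 0 to 1 members lower and 0 to 2 other splicing genes. Of the 33 members, 17 kept the sign of the log2 difference in every alternative. The causes were not tested.

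Deviations of mice with the same title number correlated at 0.0879, 0.172, -0.233, -0.209 and 0.324. The best matching DT mouse carried the same title number for PBS 5 and another number for the other PBS mice. PBS 5 has library number 6, however, and its correlation with DT 6, which shares that library number, was -0.0477. These values cannot settle whether the mice were paired, since the labels do not say what the numbers stand for. A block on the title number called 36 genes, 0 members lower and 1 other splicing gene, the block with the length and GC correction 38 genes, 0 and 1, and a block on the library number 0 genes, 0 members lower and 0 other splicing genes, with 1397 genes at an unadjusted p under 0.05 in limma and an adjusted p of 0.504 for Hnrnpd. Tests on recovered reads with edgeR and DESeq2 were planned and not run.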
